A study of Mus musculus with 7 samples.

Results

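Heat shock proteins are chaperones, proteins that hold, fold or rescue other proteins. The 10 genes described here are Hspa1a, Hspa1b, Hspa8, Hsph1, Dnajb1, Hsp90aa1, Hsp90ab1, Hspd1, Hspe1 and Hspb1. They were taken by symbol from a table of 50435 mouse genes, and each matched 1 row. Of the 10 genes, 8 reached the mean of 1 RPM needed for testing, as did 14100 genes of the table. RPM are reads per 1e6 reads of a library, not divided by gene length.

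RNA came from sorted marrow cells of 3 DT and 4 PBS samples, described by the labels as biological replicates. In both groups, irradiated wild-type mice had received Zbtb46dtr marrow. Such marrow carries the receptor for diphtheria toxin under control of Zbtb46, which among myeloid cells marks classical dendritic cells. The DT group, 8 weeks after transplantation, was given 200 ng of diphtheria toxin intraperitoneally in 100 µl of PBS. The PBS group was given 100 µl of PBS (phosphate-buffered saline) alone, and both were harvested 1 day later. The transplant limits the receptor to donor-derived cells, and Zbtb46 is also known from endothelial cells and erythroid progenitors. Sorting kept CD31+ Sca1- cells without the lineage antigens CD45, Ter119, Gr1 and CD11b, labelled as sinusoidal endothelial cells. Neither the age nor the sex of the mice is stated in the labels. The question that the labels pose is how these cells differ before and after ablation of the dendritic cells.

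Most defining endothelial genes were scarce, whereas genes of blood cells were abundant. Of 16 endothelial genes, 9 averaged under 1 RPM. Cdh5, the endothelial cadherin, was at 1.09 to 3.39 RPM in DT and at 0.0001 to 2.68 RPM in PBS, where 0.0001 is the table's lowest value and stands for a gene listed at 0. Emcn, a sinusoidal surface protein, was at or under 0.527 RPM in every library. Pecam1, which encodes CD31 and is also found on leukocytes, was at 72.0 to 87.7 RPM in DT and 61.0 to 107 RPM in PBS. The summed 15 neutrophil genes lay at 61096 to 65532 RPM in DT and 2083 to 4664 RPM in PBS. In such bulk RNA, fewer cells of a type and less RNA per cell cannot be told apart. The values below describe the sorted samples as a whole.

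The members fall into families by role. Hspa8 is the constitutive cytosolic Hsp70, an ATP-driven chaperone that binds exposed hydrophobic stretches, while Hspa1a and Hspa1b are its stress-inducible relatives. Dnajb1, an Hsp40, delivers substrates and triggers ATP hydrolysis, and Hsph1, an Hsp110, exchanges the nucleotide. Hsp90aa1 and Hsp90ab1 are the inducible and the constitutive cytosolic Hsp90, which finish the folding of kinases and steroid receptors. Hspd1 forms the barrel-shaped chaperonin of mitochondria, and Hspe1 is the lid that closes it. Hspb1 is a small heat shock protein that holds unfolded proteins without ATP. Under proteotoxic stress the factor Hsf1 binds heat shock elements, inverted repeats of GAA, and switches many of these genes on. In marrow, chaperones of this kind are also known to serve the maturation of red cell precursors.

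The promoter windows of 3 members are printed because they show the arrangement of heat shock elements in the mitochondrial pair, in Hsph1 and in the inducible Hsp70. RefSeq windows on GRCm38.p6, each of 300 bases, run from upstream of a gene's start to 50 bases after it, and 7 members had a window. Capitals mark matches to GAANNTTC or TTCNNGAA, called a pair below, which is its own reverse complement and so is read on both strands. Matches may overlap, and GAANNTTCNNGAA or TTCNNGAANNTTC, called a triplet, contains 2 overlapping pairs. The sequences run 5′ to 3′ on the strand of the gene.
Hspe1: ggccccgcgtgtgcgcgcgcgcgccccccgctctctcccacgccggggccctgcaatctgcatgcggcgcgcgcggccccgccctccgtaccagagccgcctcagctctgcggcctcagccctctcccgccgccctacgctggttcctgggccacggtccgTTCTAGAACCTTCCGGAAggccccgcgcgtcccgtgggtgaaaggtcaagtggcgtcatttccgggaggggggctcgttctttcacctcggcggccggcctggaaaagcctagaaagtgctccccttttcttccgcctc
Hsph1: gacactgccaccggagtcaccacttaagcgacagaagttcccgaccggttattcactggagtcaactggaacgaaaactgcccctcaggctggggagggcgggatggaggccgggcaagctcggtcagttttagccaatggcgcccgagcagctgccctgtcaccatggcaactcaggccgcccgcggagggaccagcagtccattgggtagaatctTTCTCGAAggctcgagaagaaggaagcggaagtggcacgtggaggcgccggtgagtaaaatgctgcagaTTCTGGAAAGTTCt
Hspa1a: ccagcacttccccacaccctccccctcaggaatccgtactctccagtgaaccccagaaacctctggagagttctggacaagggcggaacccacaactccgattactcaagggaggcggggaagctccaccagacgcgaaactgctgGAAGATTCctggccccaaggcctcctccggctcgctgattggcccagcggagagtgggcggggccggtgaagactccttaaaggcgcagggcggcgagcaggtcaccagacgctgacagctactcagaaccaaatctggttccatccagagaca
Hspe1 (chr1:55087898-55088197, plus strand) held 3 overlapping pairs and 2 triplets in 1 block. The same block lies on the other strand in a window of Hspd1 (chr1:55087883-55088182, minus strand), since both genes are transcribed away from each other from a shared region. Hsph1 (chr5:149636287-149636586, minus strand) held 3 pairs, of which 2 overlap in a triplet that lies downstream of its start. Hspa1a (chr17:34972107-34972406, minus strand) held 1 pair and no triplet. The window of its neighbour Hspa1b was identical at 296 of 300 bases and held the same pair. Hspb1 had 2 pairs, and Dnajb1 had none in either window. In all, 6 of the 7 members with a window held a pair and 3 held a triplet. Of all 32851 promoter windows, 15.1% held a pair and 0.603% held a triplet. The units differ, since a member counted if any of its windows matched (10 windows for 7 members), whereas the background counts single windows. Hspe1 with Hspd1 and Hspa1a with Hspa1b share their matches, so these members are not separate cases. Hspa8, Hsp90aa1 and Hsp90ab1 had no window. A match describes letters in a window and does not show binding.

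Hsp90aa1, Hspe1 and Hsph1 had adjusted p under 0.05 and were lower in DT, and no member was higher. On the scale of log2(RPM + 1), limma, a linear model with variances moderated across genes, was fitted to all 14100 genes with Benjamini-Hochberg adjustment. It called 3 of the 8 tested members lower, which is 37.5%. Of all tested genes, 18.6% were lower and 13.4% were higher, so the members' share rests on 3 genes beside a large background. The median difference of DT minus PBS was -0.55 for the 8 members and -0.23 for all tested genes. Groups did not overlap for 2 of the tested members, Hsp90aa1 and Hspa8, both lower in DT, which compares with 24.7% of all tested genes lower and 16.1% higher without overlap. The calls depended on single libraries. The number of members lower was 0 without DT 1, DT 2 or PBS 4, 1 without DT 3, PBS 2 or PBS 3, and 5 without PBS 1. The share of all tested genes lower moved too, to 10.7% without DT 1, 11.4% without DT 2 and 8.62% without DT 3. It was 25.6% without PBS 1, 16.6% without PBS 2, 14.2% without PBS 3 and 13.0% without PBS 4. No member was higher in any of these fits, and at an unadjusted p under 0.05 the fit of all 7 libraries had 4 members lower and 0 higher, as did limma voom on estimated reads. Without DT 1, 1 member, Hspa1a, was higher at an unadjusted p under 0.05.

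**Figure D1:**
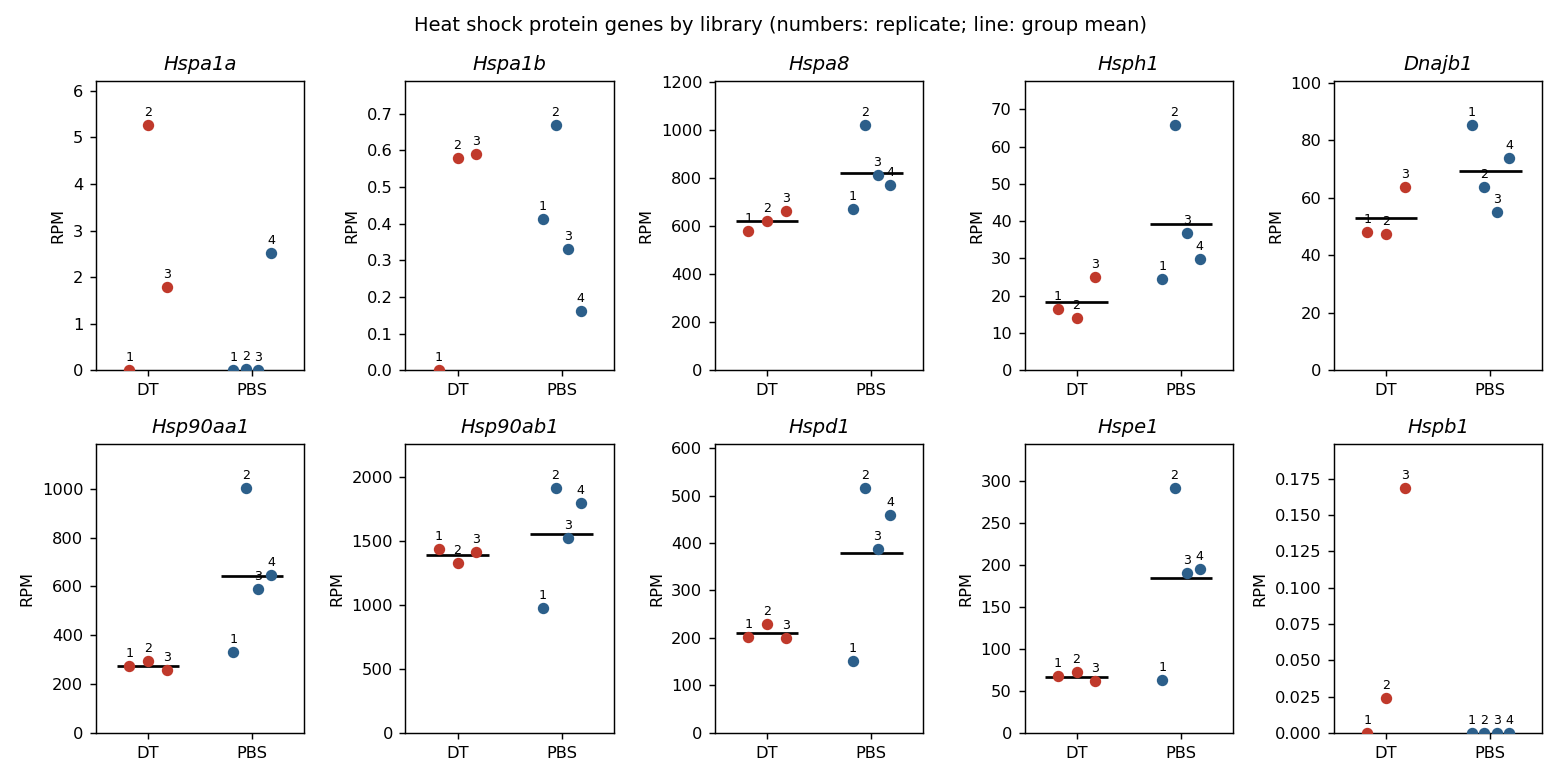
Level of each heat shock protein gene (vertical axis, RPM, starting at 0) in the 3 DT libraries and the 4 PBS libraries (horizontal axis). Points are libraries with their replicate number and lines are group means, left out for Hspa1a, Hspa1b and Hspb1, which are listed at 0 in some libraries. The 3 DT libraries lie close together for Hsp90aa1, Hspe1 and Hspd1, whereas PBS 1 lies apart from PBS 2, PBS 3 and PBS 4.

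Among the Hsp90 genes, the inducible Hsp90aa1 was lower in DT and the constitutive Hsp90ab1 did not pass the test. Hsp90aa1 (chr12:110690605-110702728, minus strand, mm10) was at 275.8, 293 and 256 RPM in DT, against 332, 1004, 591 and 646 RPM in PBS. All DT libraries lay below all PBS libraries, with PBS 1 nearest to DT and PBS 2 far above the rest. Means were 275 ± 18.4 RPM in DT (SD, n = 3) and 643 ± 277 RPM in PBS (SD, n = 4), a ratio of 0.428. The log2 difference was -1.12 (SE 0.30, 95% interval -1.79 to -0.45, limma adjusted p = 0.0190), or -0.89 relative to the median gene. It stayed between -1.40 and -0.87 when single libraries were left out. The adjusted p was 0.0594 without DT 1, 0.0519 without DT 2, 0.0732 without DT 3 and 0.0501 without PBS 4, and 0.000434 without PBS 1.

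Hsp90ab1 (chr17:45567775-45573271, minus strand) was at 1432, 1328 and 1413 RPM in DT, against 972, 1913, 1522 and 1793 RPM in PBS. The DT libraries fell inside the range of PBS, whose lowest library was again PBS 1. The log2 difference of -0.11 had a 95% interval of -0.62 to 0.40 (limma adjusted p = 0.742). It turned to 0.12 under median-ratio scaling and to 0.0061 without PBS 2, so no direction is given for this gene.

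The ratio of Hsp90aa1 to Hsp90ab1 within a library does not move with the scaling of that library. On RPM + 1 it was 0.193, 0.221 and 0.182 in DT, against 0.342, 0.525, 0.389 and 0.360 in PBS. Every DT library lay below every PBS library, PBS 1 included. The mean log2 ratio was -2.34 ± 0.14 in DT (SD, n = 3) and -1.33 ± 0.28 in PBS (SD, n = 4), a difference of -1.01. The two-sided exact permutation test over 35 splits gave p = 0.0286, the smallest this design allows, and 0.0571 after Benjamini-Hochberg adjustment over 4 ratios.

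The mitochondrial chaperonin genes were less abundant in DT than in 3 of the 4 PBS libraries. Hspe1 (chr1:55088132-55091307, plus strand), the lid subunit, was at 67.1, 72.5 and 61.2 RPM in DT, against 62.8, 292, 190 and 195 RPM in PBS. PBS 1 lay within the range of DT, and the other PBS libraries were all above every DT library. Means were 67.0 ± 5.66 RPM in DT (SD, n = 3) and 185 ± 93.8 RPM in PBS (SD, n = 4). Of the tested members Hspe1 had the most negative difference, at -1.26 (SE 0.42, 95% interval -2.19 to -0.33, limma adjusted p = 0.0432). Without PBS 1 it was -1.71 with an adjusted p of 8.40e-05. The call was lost without DT 1 (adjusted p = 0.106), DT 2 (0.0932), DT 3 (0.125), PBS 2 (0.0879), PBS 3 (0.0945) or PBS 4 (0.1002).

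Hspd1 (chr1:55077835-55088243, minus strand), the barrel subunit, was at 202, 229 and 199.6 RPM in DT, against 152, 516, 387 and 459 RPM in PBS. PBS 1 was the lowest of all 7 libraries, and the other PBS libraries were all above DT. The difference of -0.71 did not pass the test (SE 0.36, 95% interval -1.51 to 0.09, limma adjusted p = 0.154). Without PBS 1 it was -1.10, with an adjusted p of 0.000295. The ratio of Hspe1 to Hspd1, on RPM + 1, was 0.335, 0.319 and 0.310 in DT, against 0.416, 0.566, 0.492 and 0.425 in PBS. The mean log2 ratio was -1.64 ± 0.06 in DT (SD, n = 3) and -1.09 ± 0.21 in PBS (SD, n = 4), with an exact permutation p = 0.0286 and 0.0571 after adjustment. Every DT library was below every PBS library, and PBS 1 stood with the other PBS libraries in this ratio, unlike in the level of either gene. The annotated transcripts of both genes overlap head to head at their starts, and reads from the overlap cannot be told apart where strand was not used.

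**Figure D2:**
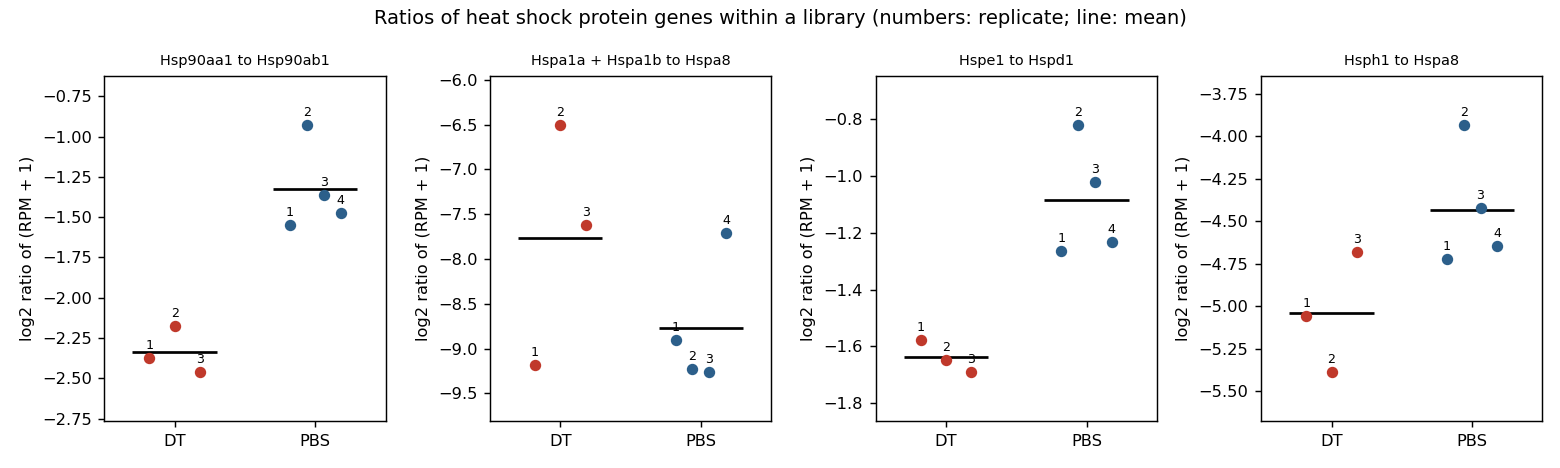
Ratios of heat shock protein genes within a library, as log2 of (RPM + 1) over (RPM + 1) on the vertical axis, for 3 DT and 4 PBS libraries. Points carry replicate numbers and lines are group means; the DT and PBS libraries do not overlap for Hsp90aa1 to Hsp90ab1 and for Hspe1 to Hspd1, and overlap for both other ratios.

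In the Hsp70 system, the nucleotide exchange factor Hsph1 was lower in DT. Hsph1 (chr5:149614287-149636376, minus strand) was at 16.5, 13.9 and 24.9 RPM in DT, against 24.5, 65.8, 36.9 and 29.7 RPM in PBS. DT 3 lay just above PBS 1, so the groups touched. Means were 18.4 ± 5.75 RPM in DT (SD, n = 3) and 39.2 ± 18.4 RPM in PBS (SD, n = 4). The log2 difference of -0.99 (SE 0.33, 95% interval -1.73 to -0.25) had a limma adjusted p of 0.0444. That call was lost without DT 1 (adjusted p = 0.125), DT 2 (0.152), PBS 2 (0.0671), PBS 3 (0.0847) or PBS 4 (0.0598). Relative to Hspa8, Hsph1 overlapped between groups, at a mean log2 ratio of -5.04 ± 0.35 in DT (SD, n = 3) and -4.43 ± 0.36 in PBS (SD, n = 4; exact permutation p = 0.0857, adjusted 0.114).

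Hspa8 (chr9:40800984-40810087, plus strand) was at 580, 621 and 662 RPM in DT, against 673, 1020, 812 and 770 RPM in PBS. The groups did not overlap, but DT 3 and PBS 1 were close. Its difference of -0.38 (SE 0.16, 95% interval -0.75 to -0.02) did not pass after adjustment over all genes (limma adjusted p = 0.0962). It passed without PBS 1, at -0.47 with an adjusted p of 0.0243. Relative to the median gene the difference was -0.16.

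Dnajb1 (chr8:83608193-83612653, plus strand) was at 48.0, 47.5 and 63.8 RPM in DT, against 85.3, 63.7, 55.2 and 73.7 RPM in PBS. It was the member whose highest library was PBS 1, the library lowest in Hspd1 and Hsp90ab1. DT 3 lay above PBS 2 and PBS 3, and the difference of -0.38 did not pass the test (SE 0.19, limma adjusted p = 0.153).

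The inducible Hsp70 genes were scarce or listed at 0 in several libraries of both groups. Hspa1a (chr17:34969190-34972156, minus strand) was listed at 0 in DT 1 and stood at 5.26 and 1.79 RPM in DT 2 and DT 3. In PBS it was listed at 0 in PBS 1, at 0.0327 and 0.000128 RPM in PBS 2 and PBS 3, and at 2.52 RPM in PBS 4. In reads estimated from the lowest step of a library, DT 2 and DT 3 held 221.3 and 91.7 and PBS 4 held 97.2, while PBS 2 held 1.3. High and low libraries occurred in both groups, and the log2 difference of 0.91 did not pass (SE 0.65, limma adjusted p = 0.307). It was 1.60 without DT 1 (adjusted p = 0.0902) and 0.27 without DT 2 (adjusted p = 0.783). Hspa1b (chr17:34956436-34959238, minus strand), untested at a mean of 0.392 RPM, was listed at 0 in DT 1 and was at 0.580 and 0.591 RPM in DT 2 and DT 3. In PBS it was at 0.412, 0.669, 0.330 and 0.161 RPM. The sum of both genes relative to Hspa8, on RPM + 1, gave overlapping groups, with a log2 difference of 1.01 (exact permutation p = 0.229, adjusted 0.229). This was 1.71 without DT 1 and 0.38 without DT 2. Both genes are so low that the added 1 RPM weighs on the ratio, and in DT 1 it makes up the numerator. The difference also takes in the -0.38 of Hspa8, as the sum alone was at 0.62 (limma adjusted p = 0.470).

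Hspb1 (chr5:135887919-135889563, plus strand) was untested. It was listed at 0 in all 4 PBS libraries and in DT 1, and was at 0.0239 and 0.169 RPM in DT 2 and DT 3. These equal 1 and 8.6 reads on the estimated scale, and a floor of 3 reads was 0.0585 to 0.0904 RPM. Of the members, Hspa1a, Hspa1b and Hspb1 were thus each listed at 0 in DT 1 and above 0 in DT 2 and DT 3.

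**Figure D3:**
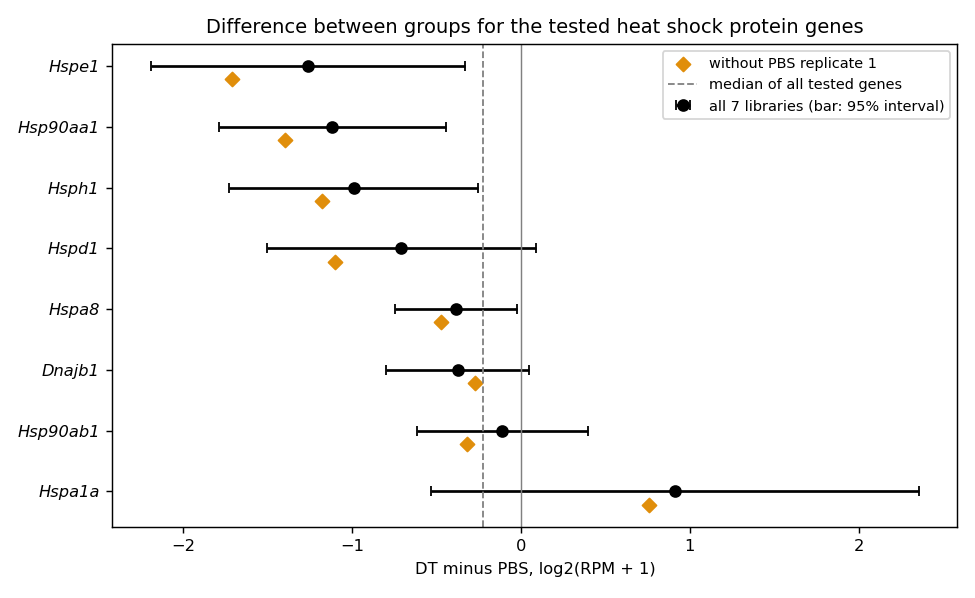
Difference of DT minus PBS in log2(RPM + 1) (horizontal axis) for the 8 tested heat shock protein genes (vertical axis). Black points with bars are estimates and 95% intervals from all 7 libraries, orange diamonds are estimates without PBS 1, and the dashed line is the median of all tested genes, -0.23; Hspe1, Hsp90aa1, Hsph1 and Hspd1 lie furthest below it, and Hspd1 has an interval that takes in 0.

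Levels can be set between genes only per length, in RPM per kilobase of transcript. Taking the row of each gene alone, Hsp90ab1 was highest, at 552 ± 21.9 in DT (SD, n = 3) and 615 ± 166 in PBS (SD, n = 4), followed by Hspa8 at 259 ± 17.3 in DT and 342 ± 61.1 in PBS. That order turns when Hspa8 is summed with the rows that share its reads, described below. Over the length of its transcript the sum was 714 to 799 RPM per kilobase in DT and 811 to 1247 in PBS, against 527 to 568 in DT and 386 to 759 in PBS for Hsp90ab1. Next, by single rows, in DT came Hspd1 at 86.9 ± 6.82, Hspe1 at 86.5 ± 7.31 and Hsp90aa1 at 83.8 ± 5.61 RPM per kilobase, which did not differ beyond their spread. In PBS the same genes stood at 156 ± 66.0 for Hspd1, 239 ± 121 for Hspe1 and 196 ± 84.4 for Hsp90aa1, also within their spread. Summed with the rows that share their reads, Hspd1 was at 134 to 157 and Hsp90aa1 at 116 to 131 in DT. Both sums lay above Hspe1, at 79.1 to 93.7 with no row added, so the likeness in DT holds for single rows only. In PBS the sums were 101 to 328 for Hspd1 and 141 to 423 for Hsp90aa1, overlapping Hspe1 at 81.1 to 377. Dnajb1 was at 17.7 ± 3.10 in DT and 23.2 ± 4.33 in PBS, and Hsph1 at 4.84 ± 1.51 in DT and 10.3 ± 4.84 in PBS.

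Several members have near-identical copies that can take up their reads. Of all 50-base windows of the transcript, the read length used, 74.8% occurred in another annotated gene for Hspa8, 66.3% for Hspa1a, 62.3% for Hspa1b, 60.4% for Hspb1 and 58.5% for Hsp90aa1. The share was 44.8% for both Hspe1 and Hspd1, 4.49% for Hsp90ab1, 0.441% for Dnajb1 and 0 for Hsph1. Levels of the first 7 are uncertain for this reason. The row Gm15459, whose transcript holds 70.0% of the windows of Hspa8, was itself at 1083 ± 56.6 RPM in DT (SD, n = 3) and 1399 ± 242 RPM in PBS (SD, n = 4), above Hspa8. Its ratio to Hspa8 was 1.69 to 1.81 in DT and 1.67 to 1.74 in PBS. Of 9 rows named as copies of a member, Hspd1-ps3 was the most abundant, at a mean of 188 RPM, with a ratio to Hspd1 of 0.605 to 0.656 in DT and 0.541 to 0.668 in PBS. Gm12346 was lower in DT like Hsp90aa1, with which it shares 51.5% of the windows, at -0.92 (limma adjusted p = 0.0385). Its ratio to Hsp90aa1 was 0.400 to 0.418 in DT and 0.334 to 0.377 in PBS, without overlap. The ratio of Hsp90aa1 to Hsp90ab1 given above uses the row of Hsp90aa1 alone. In an alternative chosen after seeing the data, members were summed with rows holding at least 20% of their windows, and 3 members were lower. Rows were added only for Hspa1a, Hspb1, Hsp90aa1, Hspa8 and Hspd1. The values of Hspe1 and Hsph1 were therefore unchanged, and of the 3 calls only that of Hsp90aa1 was examined. Hsp90aa1 was then at -1.06 (limma adjusted p = 0.0242), Hspa8 at -0.39 (0.123) and Hspd1 at -0.68 (0.169).

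The partners of these chaperones were described through 7 lists of 100 genes, of which 90 were tested. Of the 90, 28 were lower and 1 was higher, which is 31.1% and 1.11%, beside 18.6% and 13.4% of all tested genes. At an unadjusted p under 0.05, 37 were lower and 2 higher, the 2 being endoplasmic reticulum chaperones, and limma voom on estimated reads gave 1 higher list gene, also from that list. The number lower moved with single libraries, to 14 without DT 1, 12 without DT 2, 8 without DT 3, 48 without PBS 1, 20 without PBS 2, 17 without PBS 3 and 14 without PBS 4. Over all tested genes the share lower also moved, to 10.7% without DT 1, 11.4% without DT 2 and 8.62% without DT 3. It was 25.6% without PBS 1, 16.6% without PBS 2, 14.2% without PBS 3 and 13.0% without PBS 4. Without DT 3 the 8 of 90 list genes were near the share of all tested genes, so the larger share of the lists was hardly present in that fit.

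Of the Hsp70 co-chaperones, which regulate the Hsp70 cycle, 12 of 26 tested were lower and none was higher, with a median difference of -0.60. The number lower was 5 without DT 1, 3 without DT 2, 2 without DT 3, 13 without PBS 1, 9 without PBS 2, 6 without PBS 3 and 5 without PBS 4. Their summed level was 1716 to 1849 RPM in DT and 2476 to 2697 RPM in PBS, without overlap and with PBS 1 the highest. Bag1, a nucleotide exchange factor, was at 11.4, 6.75 and 11.2 RPM in DT, against 18.9, 46.5, 30.1 and 26.1 RPM in PBS. Its log2 difference was -1.50 (SE 0.31, limma adjusted p = 0.00596). Dnajc2, a ribosome-bound J protein, was at 41.3, 45.8 and 34.0 RPM in DT, against 58.8, 76.7, 79.6 and 78.8 RPM in PBS, with a difference of -0.85 (limma adjusted p = 0.00523). Neither gene overlapped between groups, and both calls held without any single library. Hspa4, a relative of Hsph1, was at -0.77 (limma adjusted p = 0.0114, and 0.0557 without DT 3). Bag4 was at -1.04 (limma adjusted p = 0.0207, and 0.0958 at most, on leaving out DT 2, DT 3 or PBS 4).

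Among Hsp90 co-chaperones, 3 of 18 were lower and none was higher, with a median of -0.34. That share of 16.7% lower was near the 18.6% of all tested genes, whose median was -0.23. The number lower was 0 without DT 3, 1 without DT 1, 9 without PBS 1 and 2 without any other single library. Their sum was 1528 to 1607 RPM in DT and 1557 to 2517 RPM in PBS, where PBS 1 was within the range of DT. Ahsa2, related to an activator of the Hsp90 ATPase, was at -0.69 (limma adjusted p = 0.0117, and 0.0624 without DT 3). Fkbp8, an immunophilin, was at -0.56 (limma adjusted p = 0.0151, and up to 0.0701 without DT 1 or DT 3). Tomm70a, an import receptor that docks Hsp90, was at -0.89 (limma adjusted p = 0.0411); that call held without PBS 1 but was lost on leaving out any other library, with an adjusted p of up to 0.136.

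The cytosolic chaperonin TRiC and its partner prefoldin had 5 of 14 genes lower and none higher, with a median of -0.44. That is 35.7% lower, beside 18.6% of all tested genes. Of the TRiC subunits only Cct4 passed, at -0.58 and just under the threshold (limma adjusted p = 0.0499). The other TRiC subunits had limma adjusted p of 0.0808 to 0.448, so the count rests mainly on prefoldin. The number lower was 2 without DT 3, 13 without PBS 1 and 3 without any other single library. The named genes were all prefoldin subunits. Vbp1 was at 125, 98.5 and 95.3 RPM in DT, against 177, 163, 190 and 193 RPM in PBS, and Pfdn6 at 58.9, 54.6 and 52.7 RPM in DT, against 79.5, 116, 94.5 and 110 RPM in PBS. Both were lower in every DT library, at -0.77 and -0.83 (limma adjusted p = 0.00348 and 0.00440), and both calls held without any single library. Pfdn4 was at -0.74 (limma adjusted p = 0.0108, and 0.0575 without DT 3). Pfdn1 was at -0.72 (limma adjusted p = 0.0387), which held only when PBS 1 was the library left out, and its adjusted p was otherwise up to 0.141.

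Of the genes for mitochondrial folding and proteolysis, the partners of Hspd1 and Hspe1, 6 of 15 were lower and none was higher, with a median of -0.46. Without PBS 1, 11 were lower and the median was -0.72. The number lower was 3 without DT 2, DT 3 or PBS 4, 4 without DT 1 or PBS 2 and 5 without PBS 3. Dnajc19 and Dnaja3, J proteins of mitochondria, were at -0.84 and -0.87 (limma adjusted p = 0.00427 and 0.00641). Hscb, which helps iron-sulphur clusters to form, was at 9.72, 9.37 and 9.31 RPM in DT, against 19.6, 25.5, 15.8 and 19.9 RPM in PBS, at -1.001 (limma adjusted p = 0.00799). These calls held without any single library. Spg7, a protease subunit, was at -0.87 (limma adjusted p = 0.0261, and up to 0.102 on leaving out DT 2, DT 3, PBS 2 or PBS 4). The list of heat shock factors had 3 tested genes, Hsf1, Hsf2 and the factor-binding Hsbp1, which is not itself a factor. Of these 1 was lower, Hsf2, at -0.64 (limma adjusted p = 0.0421). That call was lost on leaving out any library but PBS 2, with an adjusted p of up to 0.195 over all alternatives. Hsf1 was at -0.56 and did not pass (limma adjusted p = 0.0992). Of 3 tested small heat shock proteins none passed. Hspb6 was at 4.25, 6.24 and 29.4 RPM in DT, against 5.95, 9.62, 4.32 and 4.71 RPM in PBS, so DT 3 alone was high.

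The list of endoplasmic reticulum chaperones had a positive median, with 1 gene lower and 1 higher of 11 and a median difference of 0.26. That median was 0.11 without DT 3, and 2 genes were higher without PBS 1 or without PBS 2. Their sum was 1406 to 1502 RPM in DT and 1080 to 1162 RPM in PBS, and the groups did not overlap. Hspa5, the Hsp70 of that compartment, was at 631, 637 and 735 RPM in DT, against 366, 480, 401 and 445 RPM in PBS. All DT libraries lay above all PBS libraries, at 0.66 (SE 0.14, limma adjusted p = 0.00707). Sec63, a J protein of the translocon, was at 46.3, 43.4 and 39.2 RPM in DT, against 87.5, 65.9, 76.7 and 109 RPM in PBS, at -0.94 (limma adjusted p = 0.00444). Both calls held without any single library.

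**Figure D4:**
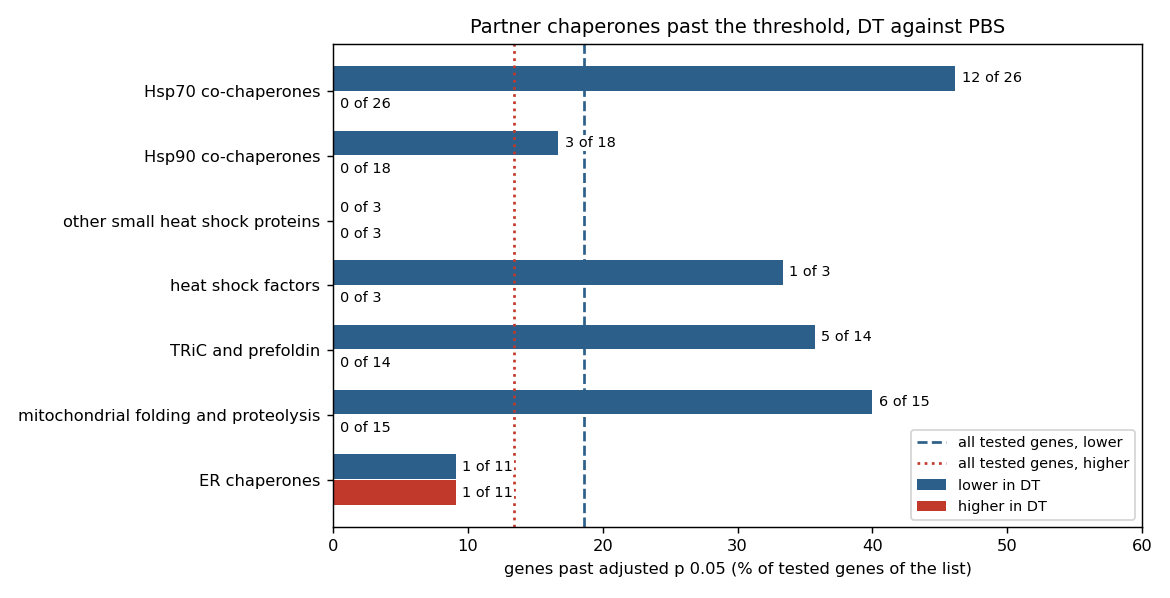
Share of the tested genes of each partner list that passed an adjusted p of 0.05 (horizontal axis, %), lower in DT (blue bars) or higher in DT (red bars), with counts beside the bars. Vertical lines mark the shares of all tested genes, 18.6% lower (dashed) and 13.4% higher (dotted); Hspa5, an ER chaperone, is the 1 gene higher.

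Sums of cell type genes differed between the same groups. The 15 erythroid genes summed to 2425 to 3144 RPM in DT and to 1066, 11625, 7993 and 7129 RPM in PBS, and 9 of 15 were lower and 4 higher in DT. PBS 1 was lowest in the erythroid sum and in Hspd1 and Hsp90ab1, and PBS 2 was highest in the erythroid sum and in Hsp90aa1, Hspe1, Hspd1, Hsph1, Hspa8 and Hsp90ab1. The 12 B lineage genes summed to 3547 to 3967 RPM in DT and 5596 to 8326 RPM in PBS, with 10 of 12 lower in DT. All 15 neutrophil, all 14 monocyte and macrophage and all 12 tested T and natural killer genes were higher in DT. The monocyte and macrophage sum was 6805 to 8546 RPM in DT and 397 to 799 RPM in PBS, and the T and natural killer sum was 344 to 357 RPM in DT and 25.8 to 54.3 RPM in PBS. The 16 endothelial genes summed to 111 to 143 RPM in DT and 138 to 168 RPM in PBS, and Pecam1 alone averaged 81.4 RPM. Of the 7 tested endothelial genes, 1 was higher and 1 lower in DT, so the sum does not give a common direction. Of plasma cell genes, 2 of 5 tested were higher and 1 lower in DT. The part of these cell types in the chaperone differences was not tested.

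Immediate early genes, which respond within minutes to stimulation and to tissue handling, were higher in DT. Of 16 tested, 11 were higher and 1 was lower, and the list summed to 1537, 1666 and 2579 RPM in DT, against 889, 606, 797 and 907 RPM in PBS. Fos was at 200, 161 and 371 RPM in DT, against 11.8, 17.4, 8.65 and 22.9 RPM in PBS (log2 difference 3.91, limma adjusted p = 4.33e-05). DT 3, the highest in Fos, was the highest DT library in Hsph1, Dnajb1, Hspa8, Hspa1b and Hspb1. It was the lowest DT library in Hsp90aa1, Hspe1 and Hspd1. DT 1, at 0 for Hspa1a, had the lowest list sum of the DT libraries, 1537 RPM, though its Fos level lay between DT 2 and DT 3. The part of handling in the values of the members was not tested.

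**Figure D5:**
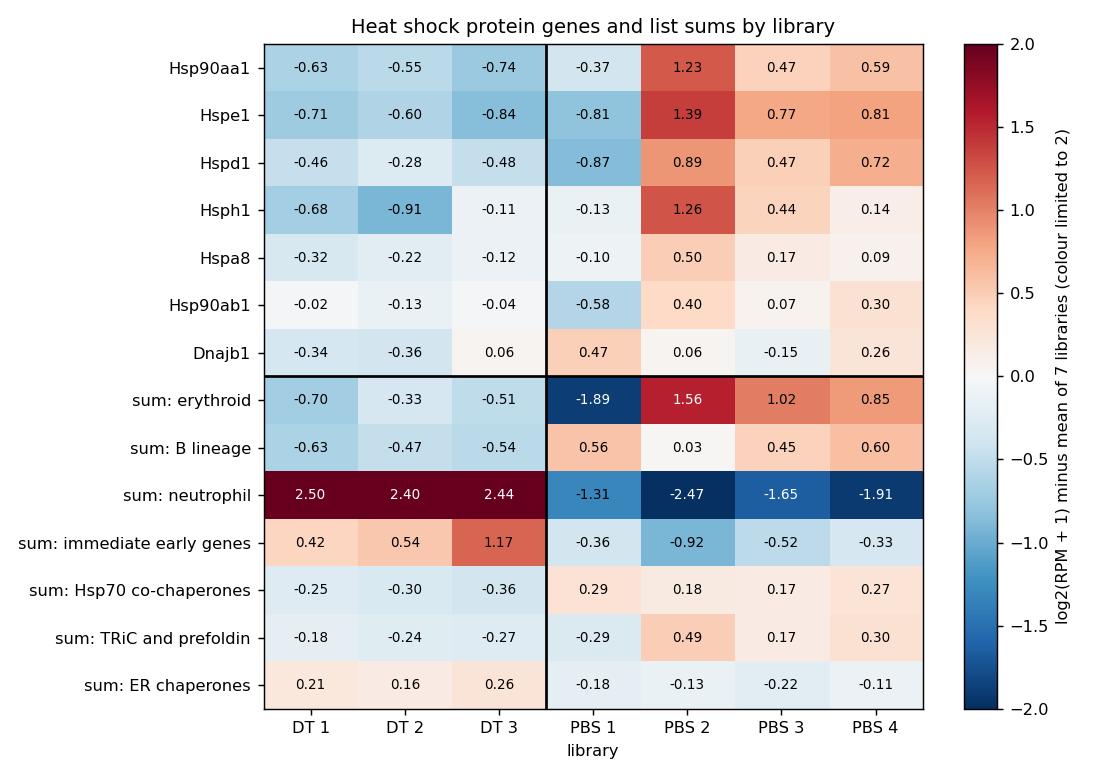
Each cell gives a gene's or a list sum's log2(RPM + 1) in 1 library minus its mean over the 7 libraries (colour limited to 2), with genes and list sums down the side and DT left of PBS. PBS 1 and PBS 2 are the lowest and the highest library of the erythroid sum, at -1.89 and 1.56, and of Hspd1, at -0.87 and 0.89.

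Other genes shared the profiles of members over the 7 libraries. Likeness was measured as the mean absolute difference between profiles of log2(RPM + 1) centred on their mean, among the 7984 genes that averaged 10 RPM or more. The profiles most like Hspd1 were those of Rexo2 at 0.068, Slc19a1 at 0.070, Lrrc14 at 0.080, Aldh7a1 at 0.086 and Ap1b1 at 0.087. Those most like Hsph1 were Wiz at 0.13, Foxk2 at 0.16, Nudt9 at 0.17, Nup205 at 0.18 and Rbm19 at 0.18. For the sum of Hspa1a and Hspa1b the nearest were Acad8 at 0.45, Faap20 at 0.46, Dis3l at 0.47, Sec24d at 0.47 and Serpinf1 at 0.48, further away than the genes nearest to Hspd1 or Hsph1.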

How the data were processed

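RNA of 3 DT and 4 PBS samples was sequenced by the authors with the SMARTer Ultra Low kit, starting at 1 ng, using 14 amplification cycles and single 50-base reads, per the labels' protocols. Named per the submitters' processing notes are STAR 2.5.3a, Partek and mm10, with no role or order; annotation, counting and strand use are not stated there or in the labels. A single table was deposited by the authors, and its file name gives FPKM, which the design had assumed. Its deposited values behave as RPM plus 0.0001, since 1048 to 1220 genes of differing length share the lowest step of a library. That step implied 33200000 to 51200000 reads per library. Of values up to 20 steps, 59.9% to 62.1% lay within 0.02 of a whole number of steps. Reads could therefore not be restored, and no count model served as the main test. All 13 mitochondrially encoded protein genes were listed at 0 in every library. Amplified reads are not independent molecules, so floors of 3 reads cover counting error only.

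Genes averaging at least 1 RPM were tested on log2(RPM + 1), which understates differences of low genes, with limma 3.58.1 in R 4.3.3, an intensity trend and Benjamini-Hochberg adjustment over all 14100 genes, two-sided, at 0.05. On simulated data with 200 changed genes the method was checked. Far more genes were called here, 2622 lower and 1894 higher, so the simulation does not vouch for these calls. Ratios within a library were compared by exact permutation. Transcript windows and positions are from GENCODE vM21, promoters from RefSeq. Alternatives covered the pseudocount, the filter, scaling, the variance model, sample weights, a replicate block, limma voom on estimated reads, and leaving out each library.

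The members and lists were chosen with earlier results of these data known. All members are named, with up to 4 genes per chaperone list past the threshold by smallest p (otherwise 2), the abundant copies of members, and the 5 genes nearest in profile to Hspd1, to Hsph1 and to summed Hspa1a and Hspa1b, leaving out predicted genes, RIKEN clones, pseudogenes, small RNAs and antigen receptor segments. Cdh5, Emcn, Gm15459, Gm12346, Cct4, Hsf1 and Hsbp1 were chosen after their values were seen.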

Additional observations from a re-analysis of the deposited data

Results flagged for a closer look

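In 67 sets of 4 PBS values, 4 held a library whose gap to the nearest other, as a part of the whole range, exceeded Dixon's 95% critical value. Chance alone flags about 1 in 20 such sets. Hspa1a had a gap of 0.987 of the range, since PBS 4 at 2.52 RPM stood far above the other PBS libraries, which were at or under 0.0327 RPM. For Dnajc2 the gap was 0.864, with PBS 1 at 58.8 RPM below 76.7 to 79.6 RPM in the other PBS libraries. Ly6c2, a monocyte surface gene, had a gap of 0.843, with PBS 1 at 178 RPM above 81.7 to 96.8 RPM. Jchain, a gene of antibody-secreting cells, had a gap of 0.925, with PBS 3 at 38.7 RPM above 0.783 to 3.63 RPM.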

How the results depend on the processing

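No member was higher in DT in any alternative run, and 3 were lower with all 7 libraries. The number lower was 5 with array weights, 1 under median-ratio scaling, 0 without a filter on low values, where 3 passed an unadjusted p of 0.05, 1 without the intensity trend, and 0 to 5 when single libraries were left out. With the replicate block, which in effect drops PBS 4, it was 1, and Hspa1a was higher at an unadjusted p under 0.05 (adjusted p = 0.0988). The share of all tested genes lower moved as well, from 18.6% to 27.1% with array weights and 9.37% under median-ratio scaling. That share was 5.75% without a filter, 16.8% without the intensity trend and 11.2% with the replicate block. Same-numbered libraries hardly deviated together (r of 0.0103 to 0.0485 over 3 pairs, against -0.0482 to 0.0484 for other pairs). No pairing by number was thus seen, but such values cannot exclude that samples were handled in pairs. Of the list genes, 28 were lower, against 10 under median-ratio scaling, 17 without a filter, 17 without the intensity trend, 12 with the replicate block and 8 to 48 on leaving out libraries; 1 was higher, against 3 with array weights, 4 under median-ratio scaling and 1 to 2 on leaving out libraries. Median-ratio scaling moved the median of all genes to -0.02 with 2364 genes higher and 1321 lower; higher genes then made up 64.2% of calls, against 41.9% as deposited. Over all genes, 2622 of 14100 were lower as deposited, 1574 of 14100 with the replicate block and 1215 to 3613 of 14100 on leaving out libraries. Without a filter 1689 were lower, of 29356 genes tested. The cause of these shifts was not tested.

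Hsp90aa1 kept its direction and call in 15 of 20 alternatives and Hspe1 and Hsph1 in 10 of 20 each, and none of the 3 changed direction. The 20 include the sums with rows sharing reads, which left the values of Hspe1 and Hsph1 as they were. Their calls were also lost without a filter, at adjusted p of 0.0966 for Hsp90aa1, 0.170 for Hspe1 and 0.147 for Hsph1. Hspa8 passed in 4 alternatives and Hspd1 in 2. Hsp90ab1 turned to 0.12 under median-ratio scaling and to 0.0061 without PBS 2, ranging from -0.32 to 0.0061 over left-out libraries. Hspb6 ranged from -0.16 without DT 3 to 1.11 without DT 1. Under median-ratio scaling the median was -0.38 for Hsp70 co-chaperones, -0.11 for Hsp90 co-chaperones (0 lower, 1 higher), -0.21 for TRiC and prefoldin, -0.24 for mitochondrial folding and 0.49 for endoplasmic reticulum chaperones (3 higher), and Hspa8 and Dnajb1 were at -0.15 each. Of the 18 chaperone list genes past the threshold that were named by smallest p, 9 kept their call in every alternative. The 4 ratios kept their direction on leaving out each library. With 3 DT and 4 PBS libraries, a ratio passes after adjustment over 4 only where at least 3 reach the smallest p.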
